A study of Homo sapiens with 108 samples.

Results

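The genes described here are XPC, DDB2, ERCC5, POLH, RRM2B and FDXR, 6 genes linked to p53 that act in DNA repair, in copying past damaged DNA or in the supply of nucleotides. They were chosen by name, and a probe counted as theirs when the array annotation gave that gene as its single symbol. Of the 6 genes, 5 had such a probe, with 7 of the 54359 probes on the array among them, and 6 of these 7 were among the 32060 probes kept for testing. FDXR, which encodes ferredoxin reductase, a mitochondrial enzyme that hands electrons from NADPH to ferredoxin, matched no probe and is named only.

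The cells were 6 human melanoma lines (MeWo, HMV-II, HMV-I, Colo679, C32TG and 92-1), and the series sets their expression after carbon ions beside that after X-rays. In each line cells received 2 Gy of carbon ions and gave RNA at 1 h or at 3 h, with unirradiated cells (0 Gy) of that beam as their control. A separate set received 2 Gy of X-rays with RNA at the same times, and it had its own 0 Gy cells. Each of these 36 groups was measured on 3 single-colour arrays. No time is given for the 0 Gy cells, so both times of a beam are set against the same controls. Nothing in the labels tells separate cultures from repeats of 1 extract, so within-line p-values rest on the spread between 3 arrays, which may be technical. Each line stands for 1 established culture, and nothing here speaks for other melanomas.

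In nucleotide excision repair a bulky DNA lesion is found, a short stretch of the damaged strand is cut out and the gap is filled. XPC is the protein that recognises the distorted helix, DDB2 is the ultraviolet-damage binding subunit that passes lesions on to it, and ERCC5 (XPG) is the nuclease that cuts on the 3′ side. POLH encodes DNA polymerase eta, which copies past ultraviolet lesions that stop the replicative polymerases. RRM2B encodes p53R2, a small subunit of ribonucleotide reductase, the enzyme that makes deoxyribonucleotides, and it serves cells outside S phase. p53 is a transcription factor that is stabilised after DNA breaks and binds DNA as a tetramer, at a pair of half-sites of 10 bases.

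One start of DDB2 carries such a pair and is printed for that reason. RefSeq promoter windows, from 250 bases before to 50 bases after a gene's start (build GRCh38.p14), were at hand for 5 of the 6 genes, as 7 windows. They were searched for the p53 half-site consensus, which reads the same on both strands, and for pairs of half-sites up to 13 bases apart. The DDB2 window whose start lies at base 47214974 of chromosome 11, plus strand, held 2 half-sites separated by 1 base, just downstream of the start. Shown are 100 bases before that start and the bases up to the end of the second half-site, chr11:47214874-47214999, with the half-sites in capitals.

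DDB2: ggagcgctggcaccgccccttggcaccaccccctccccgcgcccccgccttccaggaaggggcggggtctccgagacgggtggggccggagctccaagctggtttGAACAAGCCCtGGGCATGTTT

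A pair of this kind was present in 10 of 35116 RefSeq windows of that length (0.0285%), and a single half-site in 2329 (6.63%). One FDXR window held a single half-site, and the windows of XPC, ERCC5 and POLH and the other DDB2 window held none. No window was at hand for RRM2B. A match describes these letters alone and shows no binding. Only exact matches inside these windows were counted, so a window without one does not show that the gene lacks a p53 site.

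Melanocyte lineage genes were present unevenly. Summed over the 8 of 9 lineage genes with a probe, intensity at 0 Gy ran from 573.5 in C32TG to 1946 in MeWo over 5 lines, and was 23.3 in HMV-I, where 3 of the 8 lay above 1. The sums rest on MLANA, PMEL, TYR, TYRP1 and MITF, and members differed within lines: MLANA was 1.52 and TYRP1 2.90 in C32TG, S100B was 0.682 in 92-1, and SOX10 was 0.719 in 92-1, 0.805 in Colo679 and no higher than 1.88 in any line. Fibroblast markers summed to 6.55 to 64.4, with LUM at 54.3 in MeWo, keratinocyte markers to 2.17 to 3.43, and the 3 leukocyte markers with a probe all lay below 1 in every line. The part of these differences in the results below was not tested. Replicate arrays of a group correlated at r = 0.987 to 0.998 over probes, and all arrays differed in their values. The number of arrays limits the precision of every value.

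At 3 h XPC, on the probe taken for it, and RRM2B were higher after either beam. POLH was higher after X-rays, and DDB2 and ERCC5 did not pass over the 6 lines. A change is the mean log2 intensity after irradiation less the mean of the same line's and beam's 0 Gy arrays, so that 1 is a rise of 2-fold. After carbon ions XPC rose by 0.40 ± 0.27 (mean ± SD over 6 lines, 1.32-fold, limma adjusted p = 0.0147), higher in 6 of 6 lines. Another kept probe of XPC, described below, passed after neither beam (0.075 after carbon ions and 0.067 after X-rays, limma adjusted p = 0.351 and 0.467). RRM2B rose by 0.33 ± 0.31 after carbon ions (1.26-fold, limma adjusted p = 0.0419), higher in 5 of 6 lines. Those 2 of the 5 measured genes stood against 6.43% of all kept probes called higher in that comparison, and 6.98% called lower. POLH averaged 0.49 ± 0.64 after carbon ions (limma adjusted p = 0.0922), with a spread between lines larger than its mean, and it passed without MeWo (0.67, limma adjusted p = 0.0267).

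After X-rays 3 of the 5 genes passed, where 2.96% of all probes were called higher and 4.19% lower. RRM2B rose by 0.50 ± 0.17 (1.41-fold, limma adjusted p = 0.00213), POLH by 0.50 ± 0.35 (1.41-fold, limma adjusted p = 0.0130) and XPC by 0.39 ± 0.32 (1.31-fold, limma adjusted p = 0.0249), each higher in 6 of 6 lines. The XPC count includes HMV-I at 0.0098 and MeWo at 0.049, where irradiated and control arrays overlapped. DDB2 averaged 0.18 ± 0.26 after carbon ions (limma adjusted p = 0.175) and 0.24 ± 0.34 after X-rays (limma adjusted p = 0.163), higher in 4 of 6 lines for either beam. ERCC5 averaged -0.083 ± 0.27 after carbon ions (limma adjusted p = 0.542) and -0.097 ± 0.36 after X-rays (limma adjusted p = 0.624), higher in 2 of 6 lines each. Over all probes the median change was 0.0040 for carbon ions and 0.0046 for X-rays.

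The RRM2B call after carbon ions is close to the threshold and was lost without 92-1, C32TG, HMV-I or HMV-II, with the array set numbered 1 left out, with values as deposited and with no filter on level (limma adjusted p = 0.0528 to 0.125). XPC lost its call after carbon ions without HMV-II (limma adjusted p = 0.0505), and after X-rays without 92-1, C32TG, Colo679 or HMV-II (limma adjusted p = 0.0568 to 0.0832). RRM2B and POLH passed after X-rays in every fit without 1 line or 1 array set. A fit that counts arrays rather than lines as replicates also passed POLH after carbon ions and DDB2 after both beams, and its p-values leave out the spread between lines.

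**Figure D1:**
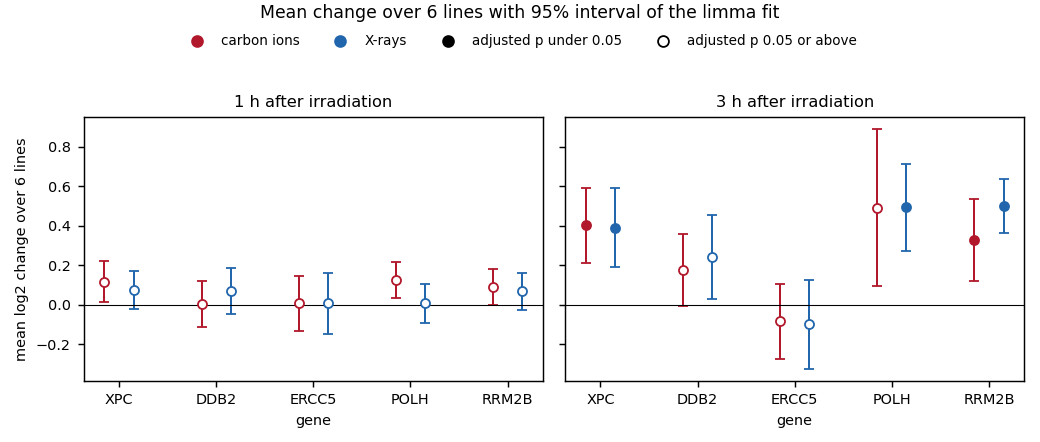
Mean log2 change over 6 lines (vertical axis) of each gene at 1 h (left) and 3 h (right), carbon ions in red and X-rays in blue, with the 95% interval of the limma fit; filled points have an adjusted p under 0.05. At 3 h XPC and RRM2B are filled for both beams and POLH for X-rays, while at 1 h no point is filled.

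At 1 h no gene of the group passed over the lines, 0 of 5 after carbon ions, where 10.7% of all probes were called, and 0 of 5 after X-rays, where 1.15% were called. After carbon ions 3 genes had an unadjusted p under 0.05 in the limma fit, as did 8450 of all 32060 probes. These genes were POLH at 0.13 ± 0.078 (higher in 6 of 6 lines, limma adjusted p = 0.0783), XPC at 0.12 ± 0.12 (5 of 6 lines, limma adjusted p = 0.135) and RRM2B at 0.090 ± 0.089 (6 of 6 lines, limma adjusted p = 0.186). After X-rays no member had an unadjusted p under 0.05, where 4412 of all probes did, and the 5 means lay between 0.0079 and 0.075. For carbon ions at 1 h, XPC passed without C32TG (0.16, limma adjusted p = 0.0488) and with values as deposited (0.15, limma adjusted p = 0.0484). Under median centring XPC and RRM2B passed for carbon ions (limma adjusted p = 0.0237 and 0.0323).

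XPC, the lesion sensor, rose at 3 h in 4 lines after either beam. A within-line fit was also run 3 times with 1 numbered array set left out, which keeps 2 arrays a group, and calls lost there are given beside each line. In the 92-1 line XPC intensity was 16.7, 14.9 and 17.1 at 3 h, against 8.90, 9.17 and 9.51 in the 0 Gy arrays of the carbon-ion set. With X-rays 92-1 had 15.9, 16.1 and 15.6 at 3 h, against 9.40, 9.74 and 9.44 in the 0 Gy arrays. The irradiated arrays lay clear of the controls for both beams (carbon ions 0.82 ± 0.068, adjusted p = 9.19e-07; X-rays 0.74 ± 0.068, adjusted p = 3.63e-06; change ± SE, limma within the line).

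C32TG cells gave 21.4, 22.3 and 24.7 at 3 h, against 16.9, 14.8 and 17.1 in the 0 Gy arrays for carbon ions. Their X-ray set gave 23.9, 24.7 and 25.1 at 3 h, against 18.5, 18 and 17.5 in the 0 Gy arrays. The groups did not overlap in either set, and both changes passed (0.49 ± 0.074 and 0.45 ± 0.074, limma adjusted p = 3.80e-04 and 8.49e-04).

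Colo679 had XPC at 22.0, 20.1 and 22.3 at 3 h, against 17.2, 17.4 and 16.5 in the 0 Gy arrays of the carbon ions. After X-rays Colo679 had 25.1, 22.6 and 23.7 at 3 h, against 13.8, 15 and 14.4 in the 0 Gy arrays. The rise after X-rays was 0.73 ± 0.085, adjusted p = 4.71e-05 in limma, and the one after carbon ions 0.33 ± 0.085, adjusted p = 0.0127. In HMV-II XPC stood at 28.8, 30.1 and 28.1 at 3 h, against 19.8, 19.8 and 19.5 in the 0 Gy arrays for carbon ions. For X-rays HMV-II stood at 26.1, 24.7 and 29.5 at 3 h, against 19.1, 20.3 and 22.5 in the 0 Gy arrays. Both rises passed in HMV-II, by 0.56 ± 0.077 after carbon ions (limma adjusted p = 3.11e-04) and 0.38 ± 0.077 after X-rays (limma adjusted p = 0.0157). Colo679 after carbon ions did not pass without array set 2 or 3 (0.32 and 0.36, limma adjusted p = 0.187 and 0.0503) or with values as deposited (0.25, limma adjusted p = 0.0719). HMV-II did not pass after carbon ions without set 2 (0.54, limma adjusted p = 0.0510), nor after X-rays without any 1 set (0.34 to 0.42, limma adjusted p = 0.0625 to 0.193) or with values as deposited (0.33, limma adjusted p = 0.113).

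In HMV-I and MeWo no XPC change passed at 3 h, except that HMV-I after carbon ions did under median centring (0.21, limma adjusted p = 0.0330). HMV-I showed 14.3, 15.9 and 14.4 at 3 h, against 14.2, 13.5 and 13.3 in the 0 Gy arrays for carbon ions, a small gap with no overlap. Its X-ray arrays read 16.1, 16.5 and 17.2 at 3 h, against 16.2, 17.3 and 15.9 in the 0 Gy arrays, and these overlapped. XPC in HMV-I was called at 1 h after carbon ions, with 18.7, 16.1 and 16.0 on the 3 arrays (0.31 ± 0.072, adjusted p = 0.017 in limma). In that comparison 2.02% of all probes were called higher. The XPC call was lost without any 1 array set (0.27 to 0.33, limma adjusted p = 0.0960 to 0.232). MeWo cells read 11.9, 12.4 and 13.8 at 3 h, against 11.5, 11.8 and 12.1 in the 0 Gy arrays of the carbon-ion set. In the X-ray set MeWo read 7.08, 7.29 and 7.60 at 3 h, against 6.87, 7.10 and 7.26 in the 0 Gy arrays. Irradiated and control arrays of MeWo overlapped for both beams, while its carbon-ion arrays all lay above its X-ray arrays, controls included.

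A second kept probe of XPC, from the expressed sequence BI824163, did not follow the first. Over the lines it averaged 0.075 ± 0.10 at 3 h after carbon ions (limma adjusted p = 0.351) and 0.067 ± 0.079 after X-rays (limma adjusted p = 0.467), and it passed in no line. The probe described above was designed on the transcript NM_004628 and has the higher mean, by which it was taken for the gene. XPC lies at chromosome 3, 14145147 to 14178601 (GRCh38.p14), and which of its transcripts each probe reports was not tested.

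DDB2, the partner of XPC in lesion finding, rose in some lines and not in others. In 92-1 it read 2.24, 2.31 and 2.22 at 3 h, against 1.57, 1.62 and 1.63 in the 0 Gy arrays for carbon ions. X-rays left 92-1 with 2.44, 2.09 and 2.45 at 3 h, against 1.37, 1.32 and 1.60 in the 0 Gy arrays. These do not overlap, and both changes passed (0.49 ± 0.089, adjusted p = 0.00442 after carbon ions and 0.70 ± 0.089, adjusted p = 1.32e-04 after X-rays, limma). HMV-II cells had DDB2 at 15.6, 12.3 and 15.1 at 3 h, against 11.5, 10.3 and 10.5 in the 0 Gy arrays of the carbon ions. Their X-ray arrays had 12.4, 11.6 and 12.1 at 3 h, against 8.74, 8.33 and 8.78 in the 0 Gy arrays. The HMV-II changes were 0.41 ± 0.087, adjusted p = 0.0077 for carbon ions and 0.48 ± 0.087, adjusted p = 0.00791 for X-rays in limma. The 92-1 calls were lost without set 1 or 2 after carbon ions (0.48 in both, limma adjusted p = 0.0653 and 0.0702) and without set 1 after X-rays (0.64, limma adjusted p = 0.0547). The HMV-II calls were lost without any 1 set, after carbon ions (0.35 to 0.48, limma adjusted p = 0.0592 to 0.102) and after X-rays (0.47 to 0.49, limma adjusted p = 0.0627 to 0.142).

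C32TG, the line with the highest DDB2, gave 29.6, 27.0 and 30.2 at 3 h, against 19.0, 24.1 and 22.8 in the 0 Gy arrays for X-rays, a called rise (0.40 ± 0.077, adjusted p = 0.00295, limma) that did not pass without set 1 (0.28, limma adjusted p = 0.117). For carbon ions it gave 31.5, 29.6 and 30.8 at 3 h, against 27.9, 28.3 and 27.1 in the 0 Gy arrays. Those groups did not overlap, but the change did not pass (0.14 ± 0.077, adjusted p = 0.286, limma). In Colo679, HMV-I and MeWo no DDB2 change passed at 3 h, and the 6 changes ran from -0.18 in MeWo after carbon ions to 0.26 in Colo679 after carbon ions (limma adjusted p = 0.0560). That Colo679 change passed under median centring (0.26, limma adjusted p = 0.0483), with quantile normalization over all probes (0.32, limma adjusted p = 0.0311) and with the replicate number as a block (limma adjusted p = 0.0495). The other DDB2 probe was too dim to be kept, with values on 99 arrays between 0.318 and 2.28 as deposited. DDB2 lies at chromosome 11, 47214454 to 47239217.

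ERCC5, the 3′ nuclease, moved in both directions and in few lines. In C32TG its probe read 4.38, 4.95 and 4.36 at 3 h, against 3.32, 3.54 and 3.70 in the 0 Gy arrays for carbon ions, a called rise (0.37 ± 0.11, adjusted p = 0.0359, limma). HMV-I had 3.4, 4.09 and 3.70 at 3 h, against 4.36, 5.01 and 5.45 in the 0 Gy arrays for carbon ions, a called fall (-0.40 ± 0.13, adjusted p = 0.0369, limma). The separate X-ray set of HMV-I had 2.22, 2.94 and 2.97 at 3 h, against 1.66, 2.21 and 2.05 in its 0 Gy arrays, a called rise (0.45 ± 0.13, adjusted p = 0.0204, limma). The 3 HMV-I carbon-ion controls lay above all of its X-ray arrays, at 0 Gy and at 3 h. Each of these 3 calls rests on few arrays: C32TG was lost without any 1 set (0.32 to 0.44, limma adjusted p = 0.0894 to 0.164), with no filter on level and with quantile normalization over all probes (limma adjusted p = 0.0597 and 0.0691), HMV-I after carbon ions without set 2 or 3 (-0.46 and -0.33, limma adjusted p = 0.0975 and 0.251), and HMV-I after X-rays without set 2 or 3 (0.47 and 0.41, limma adjusted p = 0.107 and 0.151). Over the other 9 line and beam combinations at 3 h ERCC5 changed by -0.59 to 0.088 and none passed, except Colo679 after X-rays (-0.37) when quantile normalization ran over all probes (-0.46, limma adjusted p = 0.0403). In 92-1 the X-ray arrays read 1.61, 0.821 and 2.43 at 3 h, against 1.62, 2.26 and 3.03 in the 0 Gy arrays, with overlap. ERCC5 lies at chromosome 13, 102846032 to 102875995.

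**Figure D2:**
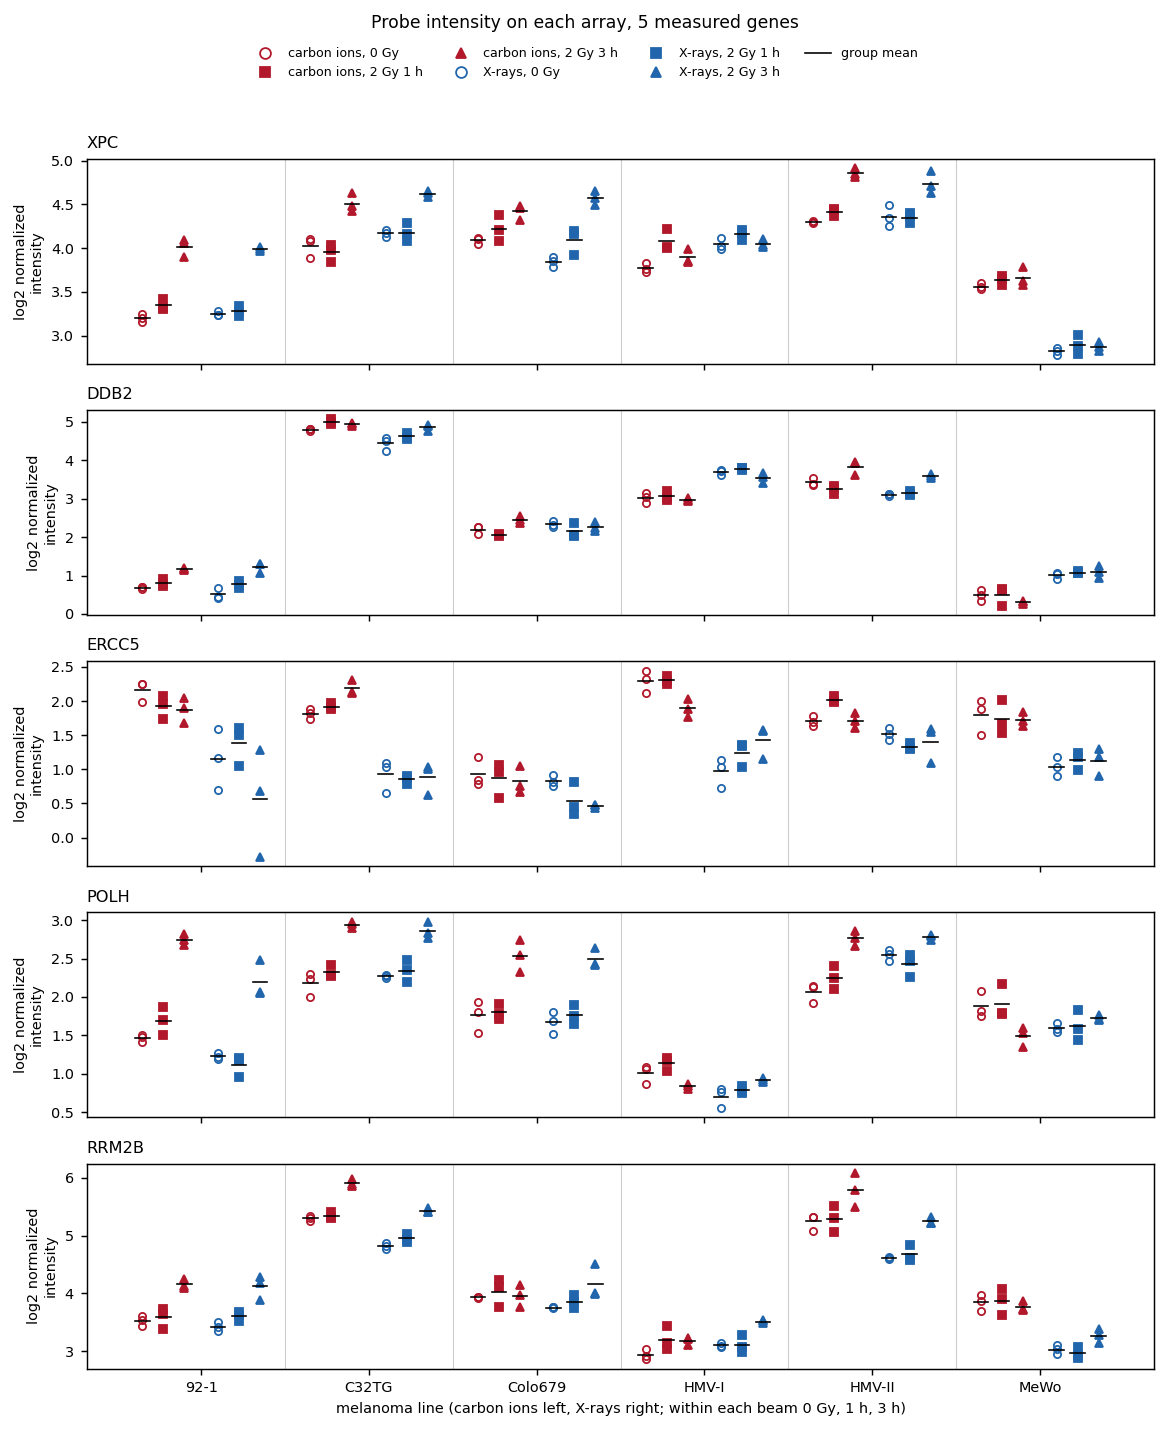
Log2 normalized intensity (vertical axis) of the 5 measured genes on every array, by line, with carbon ions in red on the left of a line and X-rays in blue on the right; open circles are 0 Gy, squares 1 h and triangles 3 h after 2 Gy, and a bar marks the mean of 3 arrays. In 92-1, C32TG, Colo679 and HMV-II the POLH triangles all stand above their circles for both beams, and the DDB2 level spans 16.3-fold between lines.

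POLH, the polymerase that bypasses lesions, had the largest change of the group and also a called fall. 92-1 went highest, with 6.66, 7.03 and 6.42 at 3 h, against 2.67, 2.84 and 2.78 in the 0 Gy arrays for carbon ions. In its X-ray set 92-1 had 4.17, 4.14 and 5.60 at 3 h, against 2.28, 2.41 and 2.32 in the 0 Gy arrays. The rises were 2.42-fold after carbon ions (1.28 ± 0.11, adjusted p = 1.40e-06) and 1.96-fold after X-rays (0.97 ± 0.11, adjusted p = 3.82e-05), both in limma.

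The C32TG line had POLH at 7.88, 7.45 and 7.73 at 3 h, against 4.94, 4.70 and 3.98 in the 0 Gy arrays for carbon ions. Its X-ray arrays had 7.86, 6.80 and 7.10 at 3 h, against 4.84, 4.74 and 4.87 in the 0 Gy arrays. Colo679 cells gave 5.82, 5.0 and 6.66 at 3 h, against 2.90, 3.83 and 3.50 in the 0 Gy arrays of the carbon-ion set. Both lines also rose after X-rays, Colo679 with 6.20, 5.34 and 5.36 at 3 h, against 2.86, 3.21 and 3.50 in the 0 Gy arrays. Fold changes of these 4 comparisons ran from 1.5 to 1.77, and all 4 passed.

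HMV-II rose after carbon ions, with 6.35, 6.80 and 7.25 at 3 h, against 3.79, 4.38 and 4.42 in the 0 Gy arrays (0.70 ± 0.093, adjusted p = 2.46e-04, limma). After X-rays it read 6.98, 6.95 and 6.71 at 3 h, against 6.09, 5.55 and 5.87 in the 0 Gy arrays, a gap with no overlap that did not pass (0.24 ± 0.093, adjusted p = 0.147, limma). The HMV-II 0 Gy arrays of the beams did not overlap either. MeWo fell after carbon ions, with 3.02, 2.90 and 2.55 at 3 h, against 3.36, 4.23 and 3.52 in the 0 Gy arrays (-0.39 ± 0.11, adjusted p = 0.0194, limma). That call was lost without set 2 or 3 (-0.31 and -0.35, limma adjusted p = 0.0991 and 0.120). Its X-ray arrays read 3.28, 3.39 and 3.26 at 3 h, against 3.16, 2.98 and 2.93 in the 0 Gy arrays and did not pass. In HMV-I POLH was 1.75, 1.82 and 1.78 at 3 h, against 1.83, 2.09 and 2.12 in the 0 Gy arrays for carbon ions, all below the controls. For X-rays HMV-I gave 1.92, 1.85 and 1.90 at 3 h, against 1.47, 1.73 and 1.69 in the 0 Gy arrays, all above them, and neither passed (limma adjusted p = 0.179 and 0.0904). POLH lies at chromosome 6, 43576185 to 43620523.

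RRM2B, the damage-linked subunit of ribonucleotide reductase, rose after X-rays in 5 lines and after carbon ions in 3. The 92-1 arrays had 17, 17.5 and 19.0 at 3 h, against 12.3, 10.8 and 11.6 in the 0 Gy arrays of the carbon ions. After X-rays they had 19.5, 14.9 and 18.2 at 3 h, against 10.2, 11.3 and 10.7 in the 0 Gy arrays. C32TG had 58.5, 63.0 and 59.3 at 3 h, against 38.0, 40.8 and 39.8 in the 0 Gy arrays for carbon ions. Fold changes were 1.54 and 1.62 in 92-1 and 1.52 after carbon ions in C32TG, and all 3 passed. The 92-1 calls were lost without set 3 after carbon ions (0.59, limma adjusted p = 0.0669) and without set 1 after X-rays (0.58, limma adjusted p = 0.0976).

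C32TG after X-rays had 42.5, 42.7 and 44.7 at 3 h, against 27.2, 28.3 and 29.3 in the 0 Gy arrays, a rise of 1.53-fold (limma adjusted p = 1.34e-06). HMV-II cells had 45.2, 55.3 and 68.1 at 3 h, against 34.0, 40.2 and 40.3 in the 0 Gy arrays for carbon ions. The HMV-II X-ray arrays had 40.01, 37.4 and 37.1 at 3 h, against 24.6, 24.9 and 24.3 in the 0 Gy arrays. Both HMV-II rises passed (1.46-fold and 1.55-fold, limma adjusted p = 0.0135 and 0.0148). They were lost without set 2 or 3 after carbon ions (0.58 and 0.43, limma adjusted p = 0.157 and 0.0588) and without set 1 or 2 after X-rays (0.60 and 0.65, limma adjusted p = 0.0605 and 0.203).

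In Colo679 RRM2B was 17.7, 13.6 and 15.7 at 3 h, against 15.2, 15.3 and 15.3 in the 0 Gy arrays for carbon ions, with overlap. For X-rays it was 22.8, 15.8 and 16.0 at 3 h, against 13.4, 13.7 and 13.5 in the 0 Gy arrays, where 1 array stands high and the change passed (0.41 ± 0.13, adjusted p = 0.0349, limma). Without set 1, which holds it, this change was 0.23, and the call was lost without any 1 set (limma adjusted p = 0.0624 to 0.142), with values as deposited and with quantile normalization over all probes (limma adjusted p = 0.0942 and 0.0757). HMV-I had RRM2B at 9.25, 8.59 and 9.38 at 3 h, against 7.27, 7.58 and 8.18 in the 0 Gy arrays for carbon ions, all above but not passing (0.24 ± 0.09, adjusted p = 0.0763, limma), though it passed under median centring (0.28, limma adjusted p = 0.0464). X-rays gave HMV-I 11.2, 11.6 and 11.5 at 3 h, against 8.54, 8.41 and 8.85 in the 0 Gy arrays, a called rise (0.41 ± 0.09, adjusted p = 0.00536, limma) lost without set 2 (0.38, limma adjusted p = 0.0688). MeWo read 13.3, 13.1 and 14.6 at 3 h, against 13, 14.7 and 15.6 in the 0 Gy arrays of the carbon ions. With X-rays MeWo read 9.75, 10.4 and 8.88 at 3 h, against 8.18, 7.73 and 8.60 in the 0 Gy arrays, all above the controls without passing (0.24, limma adjusted p = 0.171), though the change passed without set 3 (0.34, limma adjusted p = 0.0425). RRM2B lies on chromosome 8.

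Over all 60 changes at 3 h (5 genes, 6 lines, 2 beams), 30 were called higher and 2 lower in the fits within lines. Over all probes and the same 12 line and beam fits, 5.37% were called higher and 5.27% lower. The 3 irradiated arrays all lay above the 3 controls in 38 of the 60 and all below in 4, against 16.3% and 15.1% over all probes. By line, of 10 changes each, 8 were called higher in 92-1 (3.59% of probes there), 8 in C32TG (2.94%), 7 in HMV-II (2.64%), 5 in Colo679 (9.78%), 2 in HMV-I (7.6%) and 0 in MeWo (5.68%). HMV-I and MeWo each had 1 called lower, ERCC5 and POLH after carbon ions. With 1 array set left out, the 32 calls became 18 (without set 2) to 22. At 1 h 1 of 60 changes passed, the XPC rise in HMV-I after carbon ions, where 1.26% of probes were called higher.

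**Figure D3:**
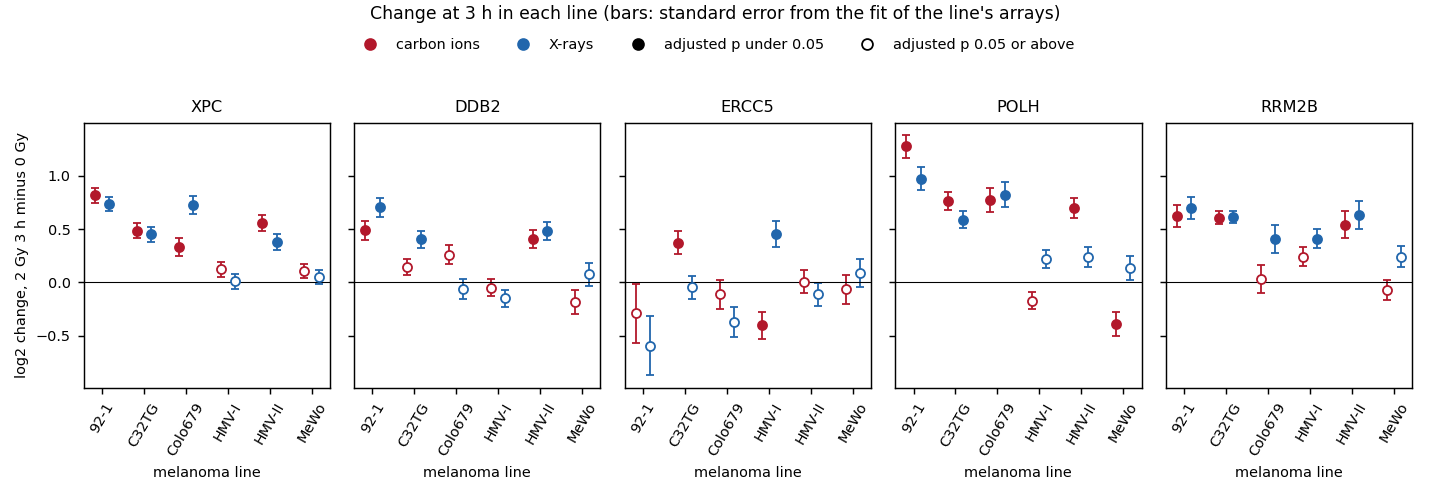
Log2 change at 3 h (vertical axis, 2 Gy minus 0 Gy) of each gene in each line, carbon ions in red left of X-rays in blue; bars are the standard error from the limma fit of the line's 18 arrays and filled points passed at an adjusted p under 0.05. XPC, POLH and RRM2B points of 92-1 and C32TG are filled and above 0 for both beams, while MeWo has a single filled point, POLH after carbon ions, below 0.

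Whether the size of the change differed between lines was tested with each line's changes for the 2 beams as its replicates. At 3 h no gene of the group passed (0.197% of probes did): POLH came nearest (moderated F 11.2, limma adjusted p = 0.0923), and XPC, RRM2B, DDB2 and ERCC5 had adjusted p = 0.205, 0.219, 0.233 and 0.602. The unadjusted p was 2.50e-04 for POLH, 0.00119 for XPC, 0.00154 for RRM2B and 0.00216 for DDB2 in limma, so the differences between lines described above are values with no passing test. At 1 h none passed either (0.0374% of probes did), with DDB2 lowest at an unadjusted p = 0.0122. POLH passed without HMV-II (F 16.9, limma adjusted p = 0.0464) and with values as deposited (F 12.1, limma adjusted p = 0.0153), and XPC without Colo679 (F 15.8, limma adjusted p = 0.0336). In the same test 2 of 10 genes for p53 and its regulators and 12 of 24 other p53 targets differed between lines, among them CDKN1A (limma adjusted p = 1.36e-04).

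Averaging both beams within a line before the fit, added after the data were seen, gave called rises at 3 h for RRM2B (0.41 ± 0.24, limma adjusted p = 0.00311), XPC (0.40 ± 0.28, limma adjusted p = 0.00692) and POLH (0.49 ± 0.48, limma adjusted p = 0.0230), where 11.2% of all probes were called higher. DDB2 had 0.21 ± 0.28 (limma adjusted p = 0.0905) and ERCC5 -0.090 ± 0.22 (limma adjusted p = 0.361).

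In unirradiated cells the lines differed in 4 of the 5 genes, as did 60.1% of all probes. That share is for the test over all lines. No share of all probes is given for single pairs of lines, so the counts of pairs below only describe. DDB2 spread most, over 16.3-fold between the highest and the lowest line (limma F, adjusted p = 6.17e-06), and 13 of its 15 pairs of lines differed. Its level, as the mean of both control sets, was 24.6 in C32TG, 10.3 in HMV-I, 9.63 in HMV-II, 4.80 in Colo679, 1.68 in MeWo and 1.51 in 92-1. Next to each other in that order, HMV-I and HMV-II (limma adjusted p = 0.837) and MeWo and 92-1 (limma adjusted p = 0.711) did not pass, and the other 3 neighbouring pairs did.

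RRM2B spread over 4.12-fold (limma F, adjusted p = 2.10e-04; 9 of 15 pairs). It stood at 33.4 in C32TG and 30.6 in HMV-II, then at 14.4 in Colo679, 11.1 in 92-1, 10.8 in MeWo and 8.12 in HMV-I, and between neighbours only the step from HMV-II to Colo679 passed (limma adjusted p = 0.00990). POLH spread over 2.73-fold (limma F, adjusted p = 0.00181; 6 of 15 pairs) and ran from 4.94 in HMV-II and 4.67 in C32TG through 3.34 in MeWo, 3.28 in Colo679 and 2.54 in 92-1 to 1.81 in HMV-I, with no passing step between neighbours. XPC spread over 2.20-fold (limma F, adjusted p = 0.00875; 6 of 15 pairs), from 20.1 in HMV-II, 17.1 in C32TG, 15.7 in Colo679 and 15 in HMV-I to 9.36 in 92-1 and 9.14 in MeWo, again with no passing step between neighbours. ERCC5 spread over 1.71-fold, from 3.16 in 92-1 to 1.85 in Colo679, and did not pass (limma F, adjusted p = 0.184; 0 of 15 pairs). C32TG and HMV-II held the 2 highest levels of RRM2B, POLH and XPC.

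**Figure D4:**
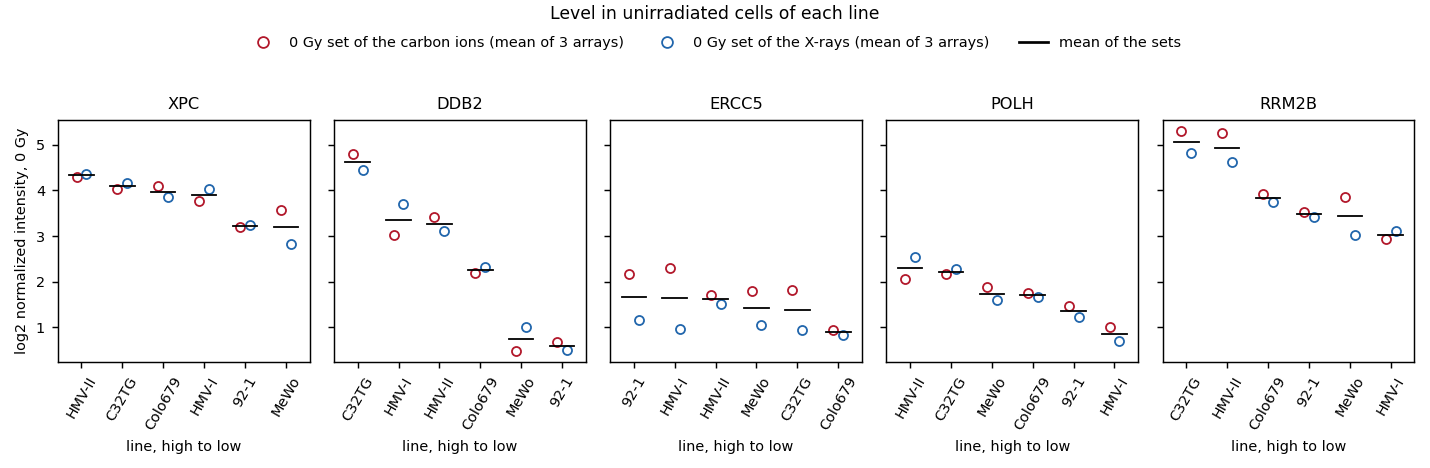
Log2 normalized intensity in unirradiated cells (vertical axis) by line, ordered high to low for each gene, with 1 circle for each 0 Gy set (mean of 3 arrays; carbon ions red, X-rays blue) and a bar for their mean. DDB2 spans 16.3-fold between C32TG and 92-1, and for ERCC5 the carbon-ion set lies above the X-ray set in all 6 lines.

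Between the control sets of the beams no gene passed, nor did any probe, with 0% called (limma called 0 of 32060, and 3116 had an unadjusted p below 0.05). ERCC5 in carbon-ion controls exceeded its level in X-ray controls by 0.71 ± 0.48, in 6 of 6 lines (limma adjusted p = 0.387, unadjusted p = 0.00152). RRM2B was also higher in the carbon-ion controls, by 0.34 ± 0.37 and in 5 of 6 lines (limma adjusted p = 0.488, unadjusted p = 0.0328). The set a sample belongs to and the beam cannot be told apart here, so levels are compared with each set's own controls.

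The change after carbon ions minus the change after X-rays passed for no gene at either time, nor for any probe: limma called 0% at 1 h and 0% at 3 h, while 2421 probes at 1 h and 1430 at 3 h had an unadjusted p below 0.05. At 3 h it was 0.011 for XPC (95% interval -0.16 to 0.18), -0.064 for DDB2 (-0.25 to 0.12), 0.014 for ERCC5 (-0.28 to 0.30) and -0.0027 for POLH (-0.25 to 0.25). The POLH lines did not all go one way: in MeWo and HMV-I the carbon-ion arrays lay below their controls and the X-ray arrays above theirs. RRM2B changed less after carbon ions in 6 of 6 lines, by -0.17 ± 0.15 (95% interval -0.32 to -0.019, limma unadjusted p = 0.0303, adjusted p = 1.00). With the irradiated arrays set against each other directly, added after the data were seen, RRM2B was 0.17 ± 0.39 higher after carbon ions (limma adjusted p = 0.557), the opposite sign. At 1 h the differences of the 5 genes lay between -0.068 and 0.12.

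Between 1 h and 3 h, in irradiated cells averaged over the beams, RRM2B rose by 0.34 ± 0.22 (limma adjusted p = 0.0187), higher in 6 of 6 lines, where 2.51% of all probes were called higher. It was the only gene of the 5 to pass, and it did not pass without 92-1, C32TG or HMV-II or the array set numbered 1 (limma adjusted p = 0.0513 to 0.0585). POLH had 0.43 ± 0.47 (4 of 6 lines, limma adjusted p = 0.0969), XPC 0.30 ± 0.31 (5 of 6 lines, limma adjusted p = 0.0863, or 0.0318 without HMV-I) and DDB2 0.17 ± 0.27 (4 of 6 lines, limma adjusted p = 0.238). ERCC5 had -0.098 ± 0.19 (1 of 6 lines higher, limma adjusted p = 0.366).

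The counts of other genes of the same pathways at 3 h stand against 6.43% of all probes called higher and 6.98% called lower after carbon ions, and 2.96% higher and 4.19% lower after X-rays. Of 22 measured further genes of nucleotide excision repair, 2 passed higher and 1 lower after carbon ions, a share near that of all probes, with a median of 0.039. ERCC2 (0.24 ± 0.15, limma adjusted p = 0.0285) and GTF2H2 (-0.30 ± 0.15, higher in 0 of 6 lines, limma adjusted p = 0.00989), both subunits of the TFIIH complex that opens the helix, went opposite ways. RAD23B, which binds XPC and steadies it, rose by 0.22 ± 0.14 (limma adjusted p = 0.0383). After X-rays 1 of the 22 passed, the TFIIH subunit GTF2H5 at 0.20 ± 0.08 (limma adjusted p = 0.0353), and the median was 0.053. Of 12 measured genes of translesion synthesis, 0 passed higher and 1 lower after carbon ions, UBE2B (-0.43 ± 0.33, limma adjusted p = 0.0215), a ubiquitin-conjugating enzyme that works with RAD18 on PCNA, which is near the 6.98% of all probes, and 0 passed after X-rays, where UBE2B (-0.34, limma adjusted p = 0.103) and UBE2A (-0.14, limma adjusted p = 0.187) came nearest.

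Of 17 genes of nucleotide supply 1 passed higher after each beam, where 6.43% of all probes did after carbon ions and 2.96% after X-rays, a count that shows nothing about the list. The gene was TYMS, the enzyme that makes thymidylate, at 0.24 ± 0.11 after carbon ions (limma adjusted p = 0.0161) and 0.20 ± 0.08 after X-rays (limma adjusted p = 0.0282), higher in 6 of 6 lines. The partners of RRM2B in ribonucleotide reductase did not pass: RRM1, the large subunit, had -0.091 ± 0.13 after carbon ions and -0.026 ± 0.17 after X-rays, and RRM2, the small subunit of S phase, had 0.019 ± 0.099 after carbon ions and 0.056 ± 0.47 after X-rays (limma adjusted p = 0.272 to 0.849). Of 14 ferredoxin and iron-sulfur cluster genes, the pathway FDXR feeds, 1 passed higher after carbon ions, again near the share of all probes, LYRM4 at 0.17 ± 0.07 (limma adjusted p = 0.0370), and 0 after X-rays, where NFU1 (0.18, limma adjusted p = 0.103) and HSCB (0.15, limma adjusted p = 0.111) came nearest. RRM1 and RRM2 were singled out after their values were seen.

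The counts were larger among p53, its regulators and its other targets, beside the same 6.43% of all probes called higher after carbon ions and 2.96% after X-rays. Of 10 measured genes for p53 and its regulators, 3 passed higher after carbon ions (PPM1D at 0.67, MDM2 at 0.54 and EP300 at 0.18) and 2 after X-rays (MDM2 at 0.65 and PPM1D at 0.62). MDM2 is the ubiquitin ligase that degrades p53, PPM1D a phosphatase that switches the response off. Of 24 other p53 targets, 15 passed higher after carbon ions and 11 after X-rays and 0 lower, with medians of 0.44 and 0.32, with the largest mean changes in CDKN1A, the inhibitor of cyclin-dependent kinases (1.2 ± 0.74 after carbon ions and 1.18 ± 0.81 after X-rays). After carbon ions SESN2 (1.07), SESN1 (1.06), TP53INP1 (0.92), GADD45A (0.89) and PLK3 (0.88) followed, and after X-rays SESN1 (0.93), TP53INP1 (0.85), the death receptor FAS (0.83), SESN2 (0.82) and PLK3 (0.80). At 1 h, when none of the 5 genes passed, 7 of these 24 targets did after carbon ions (4.67% of all probes were called higher), with GADD45A at 0.56 ± 0.32 (limma adjusted p = 0.00371), and 2 did after X-rays (0.368% of all probes), GADD45A and the kinase PLK2. These lists were put together with earlier results of the same data known, so their counts describe and do not test.

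**Figure D5:**
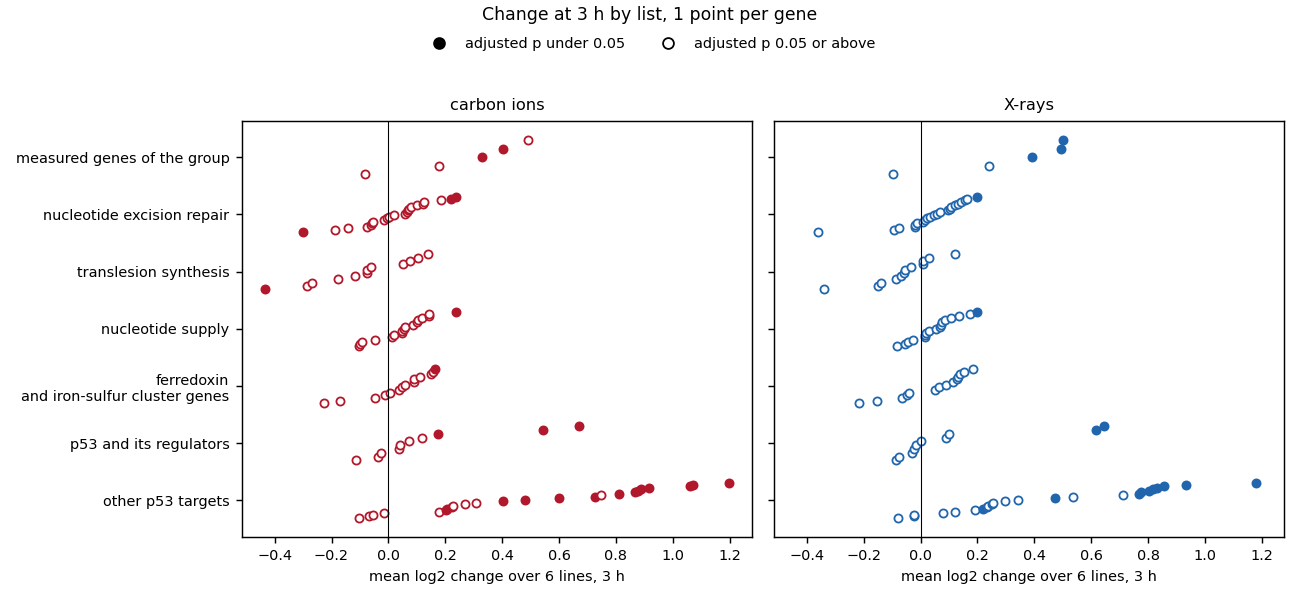
Mean log2 change over 6 lines at 3 h (horizontal axis), 1 point per gene, for the 5 measured genes and for 6 lists of related genes; carbon ions left in red, X-rays right in blue, filled where the limma adjusted p was under 0.05. Filled points gather in the list of other p53 targets, 15 of 24 after carbon ions and 11 of 24 after X-rays, with 3, 1 and 1 filled after carbon ions among excision repair, translesion synthesis and nucleotide supply genes.

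By the pattern of its 24 changes (6 lines, 2 beams, 2 times), each gene was set against 13657 other genes. For XPC the highest Pearson correlations were with FAS (0.88), CDKN1A (0.88) and TP53INP1 (0.86), and for POLH with FAS (0.93), PLK3 (0.89) and CDKN1A (0.87). RRM2B was nearest to NOTCH1 (0.87), TIGAR (0.85) and ENC1 (0.84), DDB2 to BLOC1S2 (0.77), GADD45A (0.77) and PEX11A (0.77), and ERCC5 to CDK5RAP2 (0.91), SAFB (0.87) and XPO1 (0.87). Among the members at 3 h (12 changes), XPC and POLH had r = 0.87, the other pairs without ERCC5 r = 0.61 to 0.68, and ERCC5 ran negative with all 4 others (-0.51 to -0.070). The changes of a beam at 1 h and 3 h share their control arrays and all genes share the arrays, so these correlations are descriptions with no test.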

How the data were processed

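RNA from 6 melanoma lines was hybridised to single-colour CodeLink human arrays, 3 for each of 36 groups. The values are linear intensities as deposited by the authors, scaled so that array medians lie between 1.02 and 1.32; how background and scaling were done is not given in the sources used here. Between 1000 and 8034 probes an array carried no value. All columns were matched to samples by their labels.

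From these, log2 intensities were taken, probes were kept with at most 10% missing values, a mean log2 level above the 40th percentile (-0.41) and a value in every group, and the 32060 kept probes were quantile-normalized. Symbols came from the platform annotation: 23472 probes had 1 gene symbol, 905 several and 29982 none, and 23434 of the single symbols matched RefSeq. Tests used limma 3.58.1 in R 4.3.3 with Benjamini-Hochberg adjustment over all probes tested and a threshold of 0.05. Tests over lines took a single value from each line, with a variance trend on mean level; differences between lines used 12 line and beam values; fits within a line used its 18 arrays. The spread ± is the SD over 6 lines or, within a line, the SE of the fit. Scripts were tested on simulated data. Promoter windows were read from RefSeq (GRCh38.p14). Where a gene had several kept probes, the one with the highest mean stands for it; from each list up to 6 called genes with the largest absolute change are named, or the 2 with the smallest p.

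The members and lists were chosen with earlier results of these data known. The scaling after rather than before the filter, and the trend on level rather than on change, were settled after member results had been seen under other orders of these steps, and fits without a trend, with a robust or pooled variance and with other scalings were looked at on the way. With the quantile step over all probes, the calls of the 5 genes over the lines at 3 h came out the same. Replicate numbers were checked for pairing: in 0 of 24 contrasts did every pair of same-numbered arrays correlate above 0.1. Alternatives were median centring, values as deposited, no filter on level, other fits, and leaving out each line and each replicate number.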

Additional observations from a re-analysis of the deposited data

Results flagged for a closer look

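Among 50 sets of 6 line values, 2 held a line far from the others by Dixon's ratio, where chance gives about 1 in 20. RRM2B at 1 h after carbon ions was highest in HMV-I, at 0.26 against 0.10 in the next line. The XPC change at 3 h after carbon ions minus that after X-rays was lowest in Colo679, at -0.40 against 0.036 in the next line.

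In other cases all 3 irradiated arrays of a line lay below their controls while those of another line lay above theirs. Over all probes and line and beam contrasts, 11% lay all above and 10.6% all below at 1 h, and 16.3% and 15.1% at 3 h. Cases of this kind are therefore not rare among all probes. The difference between the lines named here was not tested pair by pair, and over all lines it did not pass for any of the 5 genes. For POLH at 3 h after carbon ions MeWo was below (-0.39) and HMV-I was below (-0.17), while 92-1, C32TG, Colo679 and HMV-II were above. ERCC5 at 3 h was below in HMV-I after carbon ions (-0.40), with C32TG above, and below in Colo679 after X-rays (-0.37), with HMV-I above. DDB2 at 1 h after carbon ions was below in Colo679 (-0.15) and in HMV-II (-0.18), with 92-1 and C32TG above.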

How the results depend on the processing

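Values are log2 changes, and the cause of each shift was not tested. Of the results for single genes, those that changed sign were 46 that did not pass in the fits of the report, in 116 fits, and none that passed; 23 that passed did not in 62 alternative fits, and 15 that did not pass did in 28. The number of calls over lines at 3 h after carbon ions was 2 and became 1 with values as deposited or with no filter on level, and 4 in fits over all arrays with and without a replicate block. At 1 h after carbon ions it was 0 and became 2 with median centring and in the fits over all arrays with and without a replicate block, and 1 with values as deposited. The number of genes differing between lines at 3 h was 0, and 1 with values as deposited, and within lines at 1 h calls went to 2 with values as deposited, against 1. The replicate numbers did not pair the arrays (r from -0.28 to 0.43, 24 of 72 arrays closest to their own number); as a block within lines they moved 1 call, DDB2 in Colo679 after carbon ions at 3 h (limma adjusted p = 0.0495). Leaving out 1 array set or 1 line moved counts of calls: over lines, carbon 1 h lay between 0 and 1 without 1 line, over lines, carbon 3 h lay between 0 and 3 without 1 line, members called, 3 h minus 1 h lay between 0 and 2 without 1 line, members whose change differed between lines, 3 h lay between 0 and 1 without 1 line, member changes called within lines, 1 h lay between 0 and 0 without 1 array set, member changes called within lines, 3 h lay between 18 and 22 without 1 array set, over lines, carbon 3 h lay between 1 and 2 without 1 array set, members called, 3 h minus 1 h lay between 0 and 1 without 1 array set. With the setting "irradiated arrays only", these changed sign: POLH, carbon minus X 3 h (0.0565), RRM2B, carbon minus X 3 h (0.17). With the setting "median centring", these changed sign: POLH, carbon minus X 3 h (0.0261), XPC in C32TG, carbon 1 h (0.00896). With the setting "no filter on level", these changed sign: DDB2 in MeWo, carbon 1 h (-0.0331), DDB2 over lines, carbon 1 h (-0.00769), ERCC5 in HMV-II, carbon 3 h (-0.0107), ERCC5 over lines, carbon 1 h (-0.00394), ERCC5, carbon minus X 1 h (-0.00617), POLH in MeWo, carbon 1 h (-0.00253), RRM2B in MeWo, carbon 1 h (-0.00045), XPC in C32TG, X-rays 1 h (-0.0166). With the setting "other probe of the gene", these changed sign: XPC, control sets (-0.0685). With the setting "quantile over all probes", these changed sign: DDB2 in MeWo, carbon 1 h (-0.12), DDB2 over lines, carbon 1 h (-0.0443), ERCC5 in HMV-II, carbon 3 h (-0.0527), ERCC5 over lines, carbon 1 h (-0.0465), ERCC5 over lines, X-rays 1 h (-0.0315), ERCC5, carbon minus X 1 h (-0.015), POLH in C32TG, X-rays 1 h (-0.0483), POLH in MeWo, carbon 1 h (-0.0915), POLH over lines, X-rays 1 h (-0.0287), RRM2B in HMV-I, X-rays 1 h (-0.00546), RRM2B in HMV-II, carbon 1 h (-0.00649), RRM2B in MeWo, carbon 1 h (-0.0631), XPC in C32TG, X-rays 1 h (-0.0736), XPC in HMV-I, X-rays 3 h (-0.00024), XPC in MeWo, carbon 1 h (-0.0152), XPC, carbon minus X 3 h (-0.00221). With the setting "values as deposited", these changed sign: DDB2 in HMV-II, X-rays 1 h (-0.0342), DDB2 in MeWo, carbon 1 h (-0.0235), DDB2 in MeWo, X-rays 3 h (-0.0278), ERCC5 in HMV-I, carbon 1 h (-0.0128), ERCC5 in HMV-II, carbon 3 h (-0.0559), ERCC5 in MeWo, X-rays 3 h (-0.025), ERCC5 over lines, carbon 1 h (-0.00017), ERCC5 over lines, X-rays 1 h (-0.0127), POLH in Colo679, carbon 1 h (-0.0636), POLH in MeWo, carbon 1 h (-0.0238), POLH over lines, X-rays 1 h (-0.0139), POLH, carbon minus X 3 h (0.00389), RRM2B in Colo679, carbon 3 h (-0.0525), XPC in C32TG, carbon 1 h (0.0894), XPC in MeWo, carbon 3 h (-0.0269), XPC in MeWo, X-rays 3 h (-0.0638). Ranges of changes that turned sign without 1 line were: DDB2 over lines, carbon 1 h (-0.0347 to 0.0429), DDB2, control sets (-0.17 to 0.0378), ERCC5 over lines, carbon 1 h (-0.0524 to 0.0595), ERCC5 over lines, X-rays 1 h (-0.0448 to 0.0688), ERCC5 over lines, X-rays 3 h (-0.21 to 0.00252), ERCC5, carbon minus X 1 h (-0.10 to 0.0969), ERCC5, carbon minus X 3 h (-0.0668 to 0.19), POLH over lines, X-rays 1 h (-0.00916 to 0.0336), POLH, carbon minus X 3 h (-0.0954 to 0.10), RRM2B, carbon minus X 1 h (-0.0276 to 0.0504), XPC, carbon minus X 3 h (-0.0228 to 0.0927), XPC, control sets (-0.057 to 0.14). Ranges of changes that turned sign without 1 array set were: DDB2 in HMV-I, carbon 1 h (-0.0228 to 0.15), DDB2 in HMV-I, carbon 3 h (-0.11 to 0.0208), DDB2 in MeWo, carbon 1 h (-0.0486 to 0.0771), DDB2 over lines, carbon 1 h (-0.0229 to 0.0319), ERCC5 in 92-1, X-rays 1 h (-0.10 to 0.62), ERCC5 in C32TG, X-rays 1 h (-0.22 to 0.044), ERCC5 in C32TG, X-rays 3 h (-0.26 to 0.17), ERCC5 in Colo679, carbon 1 h (-0.16 to 0.00631), ERCC5 in HMV-I, carbon 1 h (-0.0531 to 0.081), ERCC5 in HMV-II, carbon 3 h (-0.00971 to 0.028), ERCC5 in HMV-II, X-rays 3 h (-0.23 to 0.0446), ERCC5 in MeWo, carbon 1 h (-0.11 to 0.0196), ERCC5 in MeWo, carbon 3 h (-0.27 to 0.0451), ERCC5 in MeWo, X-rays 3 h (-0.0645 to 0.20), ERCC5 over lines, carbon 1 h (-0.0102 to 0.0221), ERCC5 over lines, X-rays 1 h (-0.11 to 0.086), ERCC5 over lines, X-rays 3 h (-0.17 to 0.0204), ERCC5, carbon minus X 1 h (-0.0962 to 0.13), ERCC5, carbon minus X 3 h (-0.13 to 0.0933), POLH in Colo679, carbon 1 h (-0.0607 to 0.17), POLH in HMV-I, X-rays 1 h (-0.0146 to 0.15), POLH in MeWo, X-rays 1 h (-0.0918 to 0.15), POLH over lines, X-rays 1 h (-0.0191 to 0.054), POLH, carbon minus X 3 h (-0.0207 to 0.018), RRM2B in Colo679, carbon 3 h (-0.0632 to 0.13), RRM2B in HMV-I, X-rays 1 h (-0.0864 to 0.0501), RRM2B in HMV-II, carbon 1 h (-0.14 to 0.20), RRM2B in HMV-II, X-rays 1 h (-0.0309 to 0.11), RRM2B in MeWo, carbon 1 h (-0.15 to 0.20), RRM2B, carbon minus X 1 h (-0.0047 to 0.0423), XPC in 92-1, X-rays 1 h (-0.0109 to 0.0669), XPC in C32TG, X-rays 1 h (-0.0273 to 0.034), XPC in HMV-I, X-rays 3 h (-0.0426 to 0.0524), XPC in HMV-II, X-rays 1 h (-0.0935 to 0.0431), XPC, carbon minus X 3 h (-0.0268 to 0.0402).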
